A study of Mus musculus with 72 samples.

Results

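The mRNAs of the 8 subunits of the TRiC chaperonin (also called CCT) were followed through the compartments of mouse embryonic stem cells (mESCs). The members were taken by symbol from a fixed list (Tcp1, Cct2, Cct3, Cct4, Cct5, Cct6a, Cct7 and Cct8), and all 8 were found among the 51826 genes counted. All 8 passed the filter on low read counts and the minimum of 400 T counts in every library, in exons and in nuclear introns.

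TRiC is the chaperonin of the eukaryotic cytosol, a double ring that encloses unfolded proteins and folds them at the cost of ATP. Actin and tubulin are its best known substrates. Each ring holds 1 copy of each of 8 related subunits in a fixed order, and each subunit is encoded by its own gene. Tcp1, Cct2, Cct4 and Cct5 encode the subunits that bind ATP more tightly, and Cct3, Cct6a, Cct7 and Cct8 those that bind it less tightly. Prefoldin, a smaller complex, hands unfolded chains to TRiC. Since the subunits are needed in equal numbers, their mRNAs are a case of genes of 1 complex whose levels and kinetics can be set side by side.

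Cells of the established line E14TG2a, grown in 2i medium with LIF, were given 4-thiouridine (4sU), a uridine analog that is built into new RNA. After alkylation, sequencing reads C in place of T (T2C) at 4sU positions, and the T2C rate corrected for the conversion rate of the library gives the share of new RNA. Cells of each culture were split by digitonin and then NP-40 into cytosol, membrane fraction and nuclei, and a part was kept as whole cells. All buffers held cycloheximide, which stalls ribosomes, and all libraries were made from poly(A)-selected RNA, so that RNA without a poly(A) tail is under-represented. Labeling lasted 15, 20 or 30 min in replicates 1 and 2, where 4sU was at 500 µM. In replicates 3 and 4 it lasted 20, 40 or 60 min, also at 500 µM, although the sample labels give 100 µM at 60 min. In replicates 5 and 6 it lasted 60 or 120 min at 100 µM. Replicates were separately passaged cultures of 1 line. With 4 fractions of 16 cultures there were 64 libraries, and the 8 libraries of 120 min in replicates 3 and 4 entered only the whole-cell comparisons over time, with their 2 whole-cell libraries. Those 8 libraries were taken as 500 µM, although the sample labels give 100 µM. The paper left out cultures held at 500 µM for longer than 60 min. Labeling time, dose and replicate set cannot be fully told apart in this design, so values are also given by set.

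Libraries held 15382522 to 52975732 gene reads, and conversion rates were 2.07% to 8.29%. At 60 min, they were 5.83% to 8.29% in replicates 3 and 4 and 2.38% to 3.99% in replicates 5 and 6. The 7 naive ES cell markers summed to 2559 to 6469 CPM (gene counts scaled to equal library totals) in every library, and 6 markers of differentiated cells to 16.7 to 105.5 CPM. Whole-cell libraries of replicate 6 went against their labels. The median share of new RNA over all genes was 0.374 in the library labelled 60 min and 0.175 in the library labelled 120 min, whereas the values of replicate 5 were 0.220 and 0.388. Nuclear libraries held mitochondrial mRNAs at 4002 to 13808 CPM, summed over 3 genes, against 215 to 1654 CPM in the cytosol, and mRNAs of 5 endoplasmic reticulum (ER) and membrane proteins at 1697 to 3179 CPM against 183 to 576 CPM. In the membrane fraction, the same 3 and 5 genes summed to 37201 to 129321 and to 4464 to 10316 CPM. Mitochondrial mRNAs are made and kept in mitochondria. The part of cytoplasmic RNA left on nuclei in the nuclear values of the members was not tested.

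The 8 genes lie on 8 chromosomes (GRCm38 coordinates, GENCODE M21 gene spans). Tcp1 is at chr17:12915701-12925067 (+ strand), Cct2 at chr10:117051001-117063814 (- strand), Cct4 at chr11:22990519-23003780 (+ strand) and Cct5 at chr15:31590800-31601804 (- strand). Cct3 is at chr3:88297116-88321767 (+ strand), Cct6a at chr5:129786998-129846371 (+ strand), Cct7 at chr6:85451514-85468475 (+ strand) and Cct8 at chr16:87483326-87495873 (- strand). Their principal transcripts have 11 to 16 exons and are 1853 to 2484 bases long. The annotation lists 7 members as protein coding genes and Cct6a as a processed transcript, with a span of 59374 bases and a tag for a sequence error that gives no position. On the opposite strand, exons of Tcp1 overlap those of Mrpl18 and Acat3, those of Cct6a overlap Psph, those of Cct7 overlap Pradc1 and those of Cct8 overlap Usp16. The libraries were strand-specific, but the strand setting of the counting is not given in the sources used here, so reads of these pairs may be mixed.

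Promoters are shown for 3 members as a description of sequence, and control of the members by these promoters was not tested. The sequences are from RefSeq on GRCm38.p6 and run from 250 bases before to 50 bases after the annotated start, and 9 such promoters were listed for 7 members. Capitals mark matches, on either strand, to the GC box (GGGCGG), the CCAAT box (CCAAT) or an ETS site (CCGGAAG). The windows are chr17:12916079-12916378 (+ strand) for Tcp1, chr6:85451255-85451554 (+ strand) for Cct7 and chr16:87495820-87496119 (- strand) for Cct8.
Tcp1: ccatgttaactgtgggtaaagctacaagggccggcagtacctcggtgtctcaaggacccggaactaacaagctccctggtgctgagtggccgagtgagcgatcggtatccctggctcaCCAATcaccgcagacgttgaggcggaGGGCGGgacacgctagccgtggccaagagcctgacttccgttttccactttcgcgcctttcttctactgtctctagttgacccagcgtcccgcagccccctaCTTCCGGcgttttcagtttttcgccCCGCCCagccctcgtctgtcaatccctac
Cct7: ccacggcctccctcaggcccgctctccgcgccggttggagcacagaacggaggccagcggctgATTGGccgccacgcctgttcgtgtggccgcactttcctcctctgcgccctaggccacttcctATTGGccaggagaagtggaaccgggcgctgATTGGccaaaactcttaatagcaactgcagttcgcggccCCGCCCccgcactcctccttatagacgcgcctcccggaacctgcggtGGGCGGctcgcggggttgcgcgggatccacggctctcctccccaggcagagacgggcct
Cct8: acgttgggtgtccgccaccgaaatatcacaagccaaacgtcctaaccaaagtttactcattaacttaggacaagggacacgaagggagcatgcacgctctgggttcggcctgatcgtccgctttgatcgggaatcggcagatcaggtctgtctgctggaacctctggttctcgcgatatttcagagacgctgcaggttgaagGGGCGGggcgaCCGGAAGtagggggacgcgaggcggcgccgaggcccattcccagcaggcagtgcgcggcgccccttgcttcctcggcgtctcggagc
A GC box was found in 8 of the 9 promoters, at least 1 for each of the 7 genes, and in 35.7% of 32851 promoters of all genes. A CCAAT box was found in 4 of 9 (37.4% of all), an ETS site in 3 (8.86%) and a heat shock element (GAANNTTC) in 1, the second promoter of Cct2 (7.86%). A match describes the letters only.

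All 8 mRNAs were abundant and close to each other in level. In whole cells, levels in CPM of gene reads per kb of the principal transcript averaged 215.8 for the lowest member (Cct8) to 324.9 for the highest (Cct5). The 90th percentile of 17270 genes was 45.3 and their median 4.66, so that all 8 members were above the 90th percentile. Among subunits of tight ATP binding, Tcp1 ranged from 165.7 to 324.4 over the 16 whole-cell libraries (median 270.2), Cct2 from 193.1 to 392.6 (median 290.3), Cct4 from 174.0 to 323.2 (median 262.6) and Cct5 from 196.9 to 467.0 (median 327.6). Among the other subunits, Cct3 ranged from 173.8 to 438.8 (median 335.0), Cct6a from 179.0 to 382.0 (median 292.7), Cct7 from 121.7 to 338.9 (median 254.6) and Cct8 from 150.8 to 276.8 (median 231.9). The ranges of all 8 members overlapped. The order of the means was Cct5 (324.9 ± 87.3; SD, n = 16), Cct3 (308.5 ± 85.2), Cct2 (287.4 ± 60.1), Cct6a (273.1 ± 75.3), Tcp1 (248.6 ± 52.4), Cct4 (245.5 ± 49.1), Cct7 (235.0 ± 69.5) and Cct8 (215.8 ± 41.9). Each of the 7 steps between neighbours in this order was smaller than the SD of the difference within libraries (the widest, between Cct6a and Tcp1, was 24.5 ± 36.1). This SD describes single libraries and not the error of the mean step. The member of higher mean was the higher one in 10 to 14 of 16 libraries, with 14 for Cct6a over Tcp1 and 13 for Cct5 over Cct3. The steps were not tested. The highest mean was 1.505 times the lowest, with an SD of 0.136 over the ratios within single libraries (n = 16). Without the whole-cell libraries of replicate 6 it was 1.52. The ratio depended on the length used. With the length of all annotated exons, retained introns included, it was 2.60, with Cct2 highest and Cct7 lowest. Much of the spread between libraries was shared by the members, and their summed level ran from 1362 to 2944 in whole cells. The median of the 8 mean levels was 192.3 in replicates 1 and 2, 325.2 in replicates 3 and 4 and 273.1 in replicates 5 and 6.

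**Figure D1:**
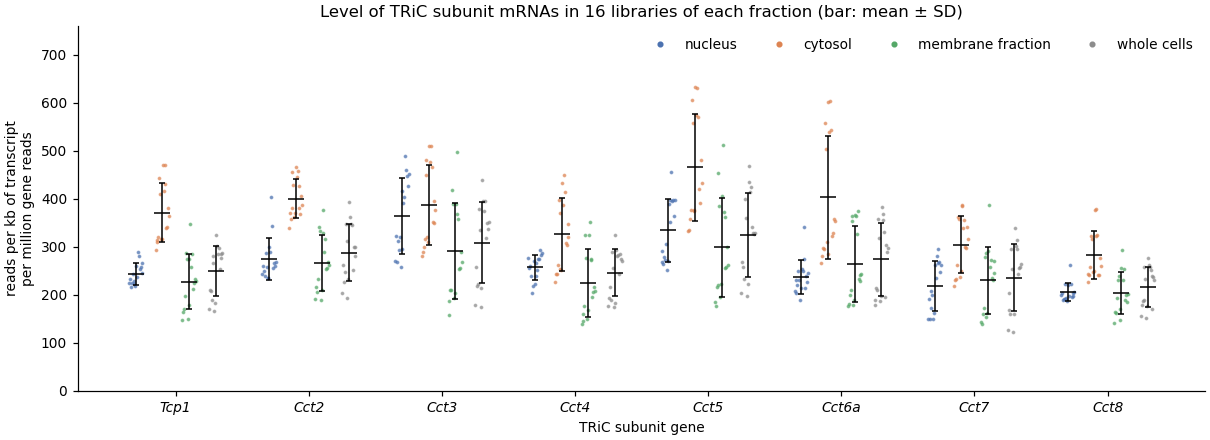
Level of each TRiC subunit mRNA (CPM per kb of principal transcript, linear axis) in the 16 libraries of each of 4 fractions; points are libraries, and bars give the mean and SD. Cytosolic means (282.5 to 465.5) are the highest of the 4 for every member, and the clouds of neighbouring members overlap.

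Every member had its highest mean level in the cytosol. Cytosolic means were 370.7 ± 61.0 for Tcp1, 399.7 ± 41.1 for Cct2, 325.4 ± 75.2 for Cct4 and 465.5 ± 111.3 for Cct5 (SD, n = 16). They were 386.1 ± 83.4 for Cct3, 402.3 ± 128.6 for Cct6a, 304.1 ± 59.1 for Cct7 and 282.5 ± 49.8 for Cct8. Nuclear means ran from 204.8 ± 18.9 (Cct8) to 363.5 ± 79.0 (Cct3), and means in the membrane fraction from 203.2 ± 43.2 (Cct8) to 298.6 ± 103.1 (Cct5). In CPM, 5 members were higher in the cytosol than in the nuclei of the same culture in 16 of 16 cultures, Cct5 in 15, Cct4 in 12 and Cct3 in 10. Levels are relative to all reads of a library, so that less of these mRNAs and more of others cannot be told apart.

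In the edgeR fit, 4 of the 8 members were called lower in the nucleus than in the cytosol (adjusted p under 0.05 and a log2 difference over 0.5 in size), where 21.2% of 17270 genes were called lower. These were Cct6a (log2 -0.76, SE 0.07), Tcp1 (-0.64, SE 0.06), Cct2 (-0.60, SE 0.05) and Cct7 (-0.53, SE 0.07). Cct5 (-0.50), Cct8 (-0.49) and Cct4 (-0.34) had an adjusted p of at most 0.000366 but lay under the limit on size. For Cct3, the value of -0.12 had an adjusted p of 0.163. The median over the members was -0.51 and the median over all genes 0.31, and since the latter moved with the scaling (0.04 with the culture as a block), the members are better read against it. The median of the members lay 0.83 below that of all genes, and 0.44 to 1.32 below it in the 15 fits run. The fit as reported did not pair the fractions by culture and held the whole-cell libraries of replicate 6. With the culture as a block, or without the whole-cell libraries of replicate 6, 7 members were called lower. Of all genes called, 67.3% were higher in the nucleus in the fit as reported, 54.7% with the block and 54.0% without these 2 libraries. By set, 6 were called in replicates 1 and 2, 8 in replicates 3 and 4 and 3 in replicates 5 and 6. The share of all genes called lower in each of these fits is not given here. These counts are therefore not read as particular to the members.

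The contrast between nucleus and cytosol differed between replicate sets. In replicates 3 and 4 it was more negative than in replicates 5 and 6 by a log2 difference of 0.5 or more for 7 of the 8 members (all but Cct2), in a test of the interaction in edgeR in which 19.7% of 17755 genes were called in that direction. The interaction was -0.97 (SE 0.16) for Cct3, -0.95 (SE 0.14) for Cct4, -0.93 (SE 0.16) for Cct5 and -0.88 (SE 0.12) for Cct6a. It was -0.67 (SE 0.12) for Tcp1, -0.66 (SE 0.12) for Cct8, -0.66 (SE 0.16) for Cct7 and -0.32 (SE 0.12, adjusted p = 0.0272) for Cct2. Cytosolic levels of Cct6a averaged 557.8 ± 38.96 in replicates 3 and 4 and 339.9 ± 17.97 in replicates 5 and 6, without overlap, while its nuclear levels averaged 266.2 ± 39.3 and 230.7 ± 13.8. For Cct3, the cytosol gave 482.0 ± 24.2 and 368.4 ± 22.2, and nuclei 384.5 ± 70.4 and 446.2 ± 14.5. Without replicate 3, 4 members were called, and the share of all genes called in that fit is not given here. Replicate set and dose cannot be told apart here. Labeling times also differed, at 20, 40 or 60 min in replicates 3 and 4 and 60 or 120 min in replicates 5 and 6.

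Between membrane fraction and cytosol, none of the 8 members was called, where 38.1% of 17270 genes were called in either direction. Log2 differences ran from -0.43 (Tcp1, SE 0.06) to -0.13 (Cct7, SE 0.07), with a median of -0.28 against -0.15 for all genes. For 6 members the unadjusted p and the adjusted p were under 0.05, and the limit on size was not reached, and DESeq2 also called none. The members were lower in the membrane fraction than in the cytosol of the same culture in 15 or 16 of 16 cultures in CPM. CPM lack the TMM scaling, and 3 mitochondrial genes alone took 37201 to 129321 CPM in the membrane fraction, against 215 to 1654 in the cytosol. In edgeR by set, differences were -0.24 (Tcp1) to 0.07 (Cct8) in replicates 1 and 2. They were -0.51 (Cct6a) to -0.12 (Cct3) in replicates 3 and 4, and -0.53 (Cct5) to -0.21 (Cct7) in replicates 5 and 6.

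The share of new RNA of every member was higher at 120 min than at 15 min in every fraction. In nuclear exons, the share of new RNA went from between 0.01003 (Cct5) and 0.0462 (Cct6a) at 15 min, with 6 of the 8 members under the median of all genes, to between 0.131 and 0.215 at 120 min, when that median was 0.430 and their lower quartile 0.278. In the cytosol it lay at 0.0080 to 0.0330 at 15 min, or at most 0.0142 without the 2 exons of high early conversion (exon 11 of Cct6a and exon 6 of Cct4), and at 0.111 to 0.167 at 120 min (all genes 0.370), and in the membrane fraction to 0.0796 to 0.126 (all genes 0.303). At 120 min, all 8 members lay under the lower quartile of all genes in the nucleus, the cytosol and the membrane fraction. For Tcp1, nuclear shares averaged 0.0236 after 15 min of labeling, 0.109 after 30, 0.129 after 40 and 0.202 ± 0.0140 after 120 (SD, n = 2). For Cct2 they averaged 0.0175, 0.0898, 0.102 and 0.215 ± 0.0025 after the same times. Cct5 had the lowest nuclear share at 120 min (0.131 ± 0.0168), followed by Cct7 (0.134 ± 0.0057) and Cct8 (0.140 ± 0.0047), and the other 5 members were between 0.170 (Cct3) and 0.215. In the cytosol, Cct8 stayed between 0.0079 and 0.0111 from 15 to 40 min, and reached 0.111 ± 0.0010 at 120 min, next to Cct5 at 0.111 ± 0.0041.

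**Figure D2:**
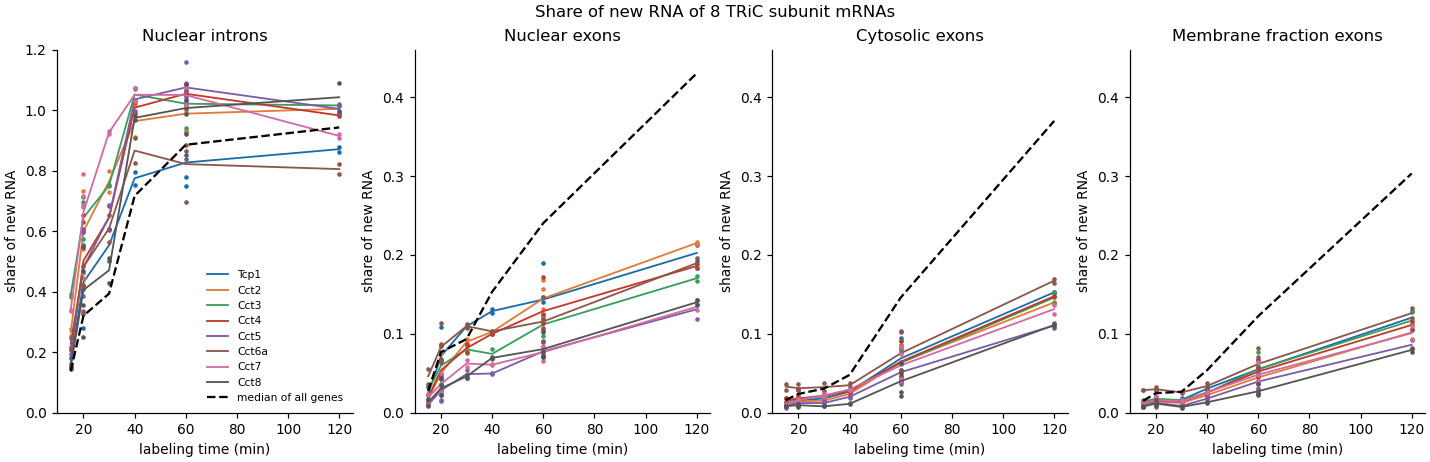
Share of new RNA (0 to 1) against labeling time (min) for nuclear introns and for exons in the nucleus, the cytosol and the membrane fraction; points are libraries, colored lines the mean of each member, and the dashed line the median of all genes. Mean intron shares of the members are at 0.775 or more from 40 min on, while their exons stay under the dashed line at 120 min.

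At the same labeling time, replicate sets differed. At 20 min, the median nuclear share over the 8 members was 0.0310 in replicates 1 and 2 and 0.0726 in replicates 3 and 4. At 60 min, the cytosolic median was 0.0426 in replicates 3 and 4 (500 µM) and 0.0829 in replicates 5 and 6 (100 µM), while the nuclear medians were 0.118 and 0.109. Every member showed the difference in the cytosol (Tcp1 0.0473 and 0.0902, Cct8 0.0235 and 0.0561, for example), and the median over all genes in single cytosolic libraries of 60 min ran from 0.0924 to 0.206.

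In limma on log2(share + 0.01), all 8 members had a lower share of new RNA in the cytosol than in the nucleus, where 76.3% of 11575 genes were called lower, so this is the common direction. Log2 differences were -1.28 (SE 0.13) for Tcp1, -1.20 (SE 0.13) for Cct2, -0.96 (SE 0.13) for Cct4 and -0.65 (SE 0.12) for Cct5. They were -0.97 (SE 0.12) for Cct3, -0.87 (SE 0.12) for Cct6a, -0.61 (SE 0.11) for Cct7 and -1.02 (SE 0.13) for Cct8, each with an adjusted p of at most 1.61e-06. The median over the members was -0.96 and that over all genes -0.88. In single cultures, the nuclear share was higher in 16 of 16 for 6 members and in 15 of 16 for Cct5 and Cct7. The contrast depended on the set. It had a median of -0.92 in replicates 1 and 2 and of -1.44 in replicates 3 and 4, with 8 members called in each. The share of all genes called in these fits is not given here. In replicates 5 and 6 the median was -0.30, and no member and 60 of 12953 genes were called lower. SEs there were 0.29 (Cct4) to 0.33 (Cct8), against 0.12 (Cct7) to 0.15 (Cct8) in replicates 3 and 4. The fit of replicates 5 and 6 held the whole-cell libraries of replicate 6 that went against their labels. Their part in these SEs and in the low number of calls was not tested. With the culture as a block, all 8 members were called, and for T2C / T without the conversion rate, 0 of 8. T2C / T is the share multiplied by the conversion rate and so is far smaller, while the added 0.01 stayed the same. Differences on this scale are pressed together and the limit on size is hard to reach. The count of 0 therefore cannot show whether the contrast depends on the conversion rate.

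Membrane and cytosolic shares were not told apart in the fit over all sets. None of the 8 members was called, at an unadjusted p under 0.05 either, where 11.7% of genes were called in either direction. Log2 differences ran from -0.23 (Cct4, SE 0.13) to -0.10 (Tcp1, SE 0.13), with a median of -0.16. They depended on the set, though no member was called in any. They ran from -0.34 (Cct4) to 0.02 (Cct8) in replicates 1 and 2, and from -0.12 (Cct2) to 0.09 (Cct8) in replicates 3 and 4. In replicates 5 and 6 they ran from -0.56 (Cct8) to -0.29 (Cct3), with SEs of 0.29 to 0.33. That fit also held the whole-cell libraries of replicate 6. At 120 min, the mean share of every member was lower in the membrane fraction (0.0796 to 0.126) than in the cytosol (0.111 to 0.167).

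Introns, which mark pre-mRNA, held more new RNA than exons of the nucleus. In nuclei, intronic shares of the members were 0.151 (Cct8) to 0.388 (Cct3) at 15 min and 0.406 to 0.663 at 20 min, and from 40 min on the means were between 0.775 and 1.08. Shares were not capped at 1, and the cause of values above 1 was not tested. At 120 min, Cct6a (0.806 ± 0.0228; SD, n = 2) and Tcp1 (0.872 ± 0.0114) were lowest and the other 6 between 0.915 and 1.04. The median over the introns of all genes was 0.137 at 15 min, 0.717 at 40 min and 0.944 at 120 min. All 8 members had a higher share in introns than in exons of the nucleus (limma), as 96.3% of 10380 genes did, by a log2 difference of 2.38 (Tcp1) to 3.61 (Cct7). The median of 3.08 lay above that of all genes (1.83), and introns were higher in 16 of 16 nuclear libraries for every member. Introns held 7.10% (Cct7) to 16.2% (Cct8) of the T counts of a member in nuclei, and 0.984% to 3.53% in the cytosol.

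Shares at short labeling times depend on how many T are read as C without labeling, so conversion was also read exon by exon. In the cytosol and membrane fraction at 15 and 20 min (12 libraries), 104 of the 106 exons with values (Tcp1 exon 1 had none of its own) had 0.0088% to 0.0718% of T read as C. The 2 others were exon 11 of 13 of Cct6a and exon 6 of 14 of Cct4 (over 3 times the median exon of the gene, a limit chosen after the values were seen). Exon 11 of Cct6a (chr5:129844970-129845072, + strand, 103 bases, 28 T) had 2667 of 189707 T read as C, or 1.41% (95% Wilson interval 1.35% to 1.46%), which was 36.9 times the median exon of the gene. Over the 64 libraries its rate ran from 1.11% to 2.51%, with means of 1.59% at 15 min and 1.57% at 120 min in the cytosol, and 1.45% and 1.74% in the nucleus. Exon 6 of Cct4 (chr11:22997033-22997154, + strand) had 0.124% (0.114% to 0.135%), 3.70 times its gene's median. Its mean in the cytosol was 0.160% at 15 min and 0.497% at 120 min. The sequence of exon 11 of Cct6a is shown because the early cytosolic share of this member changed most when it was left out, with every T in capitals (GENCODE M21 transcript).
Cct6a exon 11: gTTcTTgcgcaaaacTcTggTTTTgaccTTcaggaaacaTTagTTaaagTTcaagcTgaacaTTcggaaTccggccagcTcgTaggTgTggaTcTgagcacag
Intervals cover counting error only. With both exons left out, the cytosolic share of Cct6a was 0.0142 in place of 0.0330 at 15 min and 0.158 in place of 0.167 at 120 min. The cause of these rates was not tested.

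**Figure D3:**
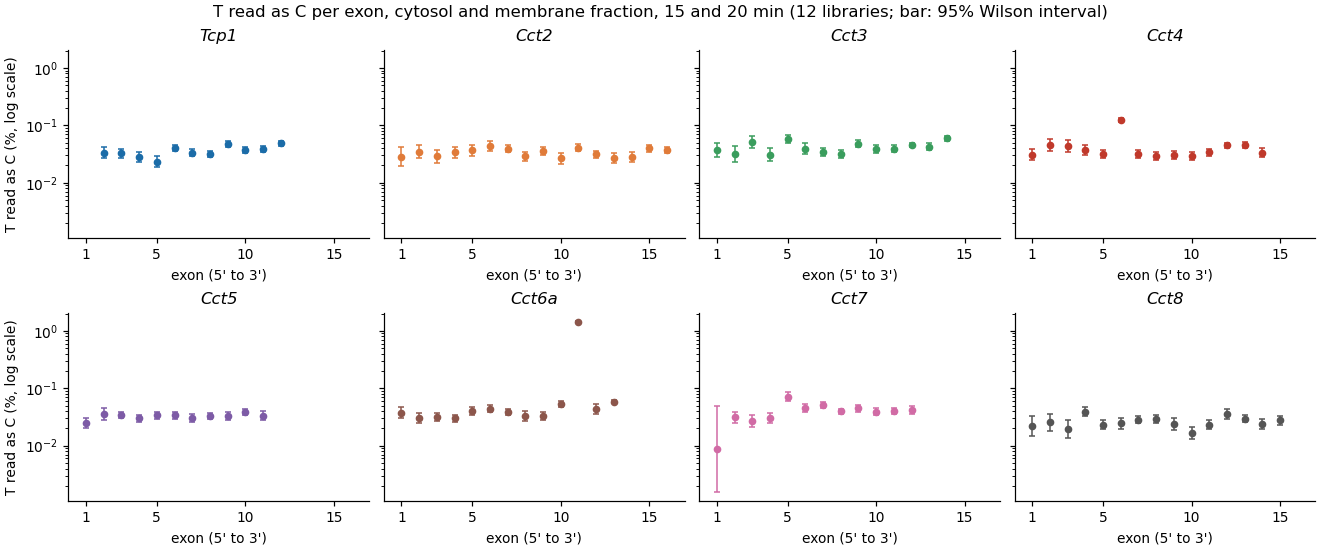
Percent of T read as C (log axis) in each exon of the principal transcript of each member, numbered 5′ to 3′, pooled over 12 libraries of cytosol and membrane fraction at 15 and 20 min; bars are 95% Wilson intervals for counting error. Exon 11 of Cct6a, at 1.41%, and exon 6 of Cct4, at 0.124%, stand above the other exons, which lie at 0.0718% or less.

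In the nucleus, exons of the 3′ part of the transcript held more new RNA than those of the 5′ part, when exons were split at the middle of their order. This comparison was added after seeing the data and leaves out the 2 exons. The difference in share (3′ minus 5′) was 0.0415 ± 0.0182 (SD over 16 libraries) for Tcp1, 0.0318 ± 0.0190 for Cct2, 0.0287 ± 0.0181 for Cct4 and 0.0136 ± 0.0111 for Cct5. It was 0.0232 ± 0.0139 for Cct3, 0.0344 ± 0.0239 for Cct6a, 0.0076 ± 0.0111 for Cct7 and 0.0195 ± 0.01001 for Cct8. The 3′ part was higher in 16 of 16 libraries for Tcp1, Cct2 and Cct8, in 15 for Cct3, Cct4, Cct5 and Cct6a, and in 11 for Cct7. In an exact permutation test of sign changes within libraries (two-sided, 16 tests in all over nucleus and cytosol), p was 3.05e-05 for Tcp1, Cct2 and Cct8, the smallest that 65536 sign patterns can give, and at most 0.0117 (Cct7) for the others. This is the common direction. Over all 7851 genes with at least 400 T counts in both parts in every nuclear library, the 3′ part was higher on average in 93.7%, and 73.2% were called higher in the same exact permutation test, adjusted over all of them. The median difference was 0.0503 over these genes and 0.0259 over the 8 members. At 30 min, nuclear shares of Tcp1 were 0.0573 ± 0.0045 in the 5′ part and 0.125 ± 0.0024 in the 3′ part (SD, n = 2), and at 120 min 0.182 ± 0.0015 and 0.211 ± 0.0197. For Cct4 they were 0.0433 and 0.0950 at 30 min, and 0.186 and 0.184 at 120 min. In the cytosol, differences were smaller, between 0.0013 ± 0.0045 (Cct5) and 0.0106 ± 0.0107 (Cct3), and the exact permutation p was under 0.05 for 6 members, with 0.296 for Cct5 and 0.0986 for Cct8.

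**Figure D4:**
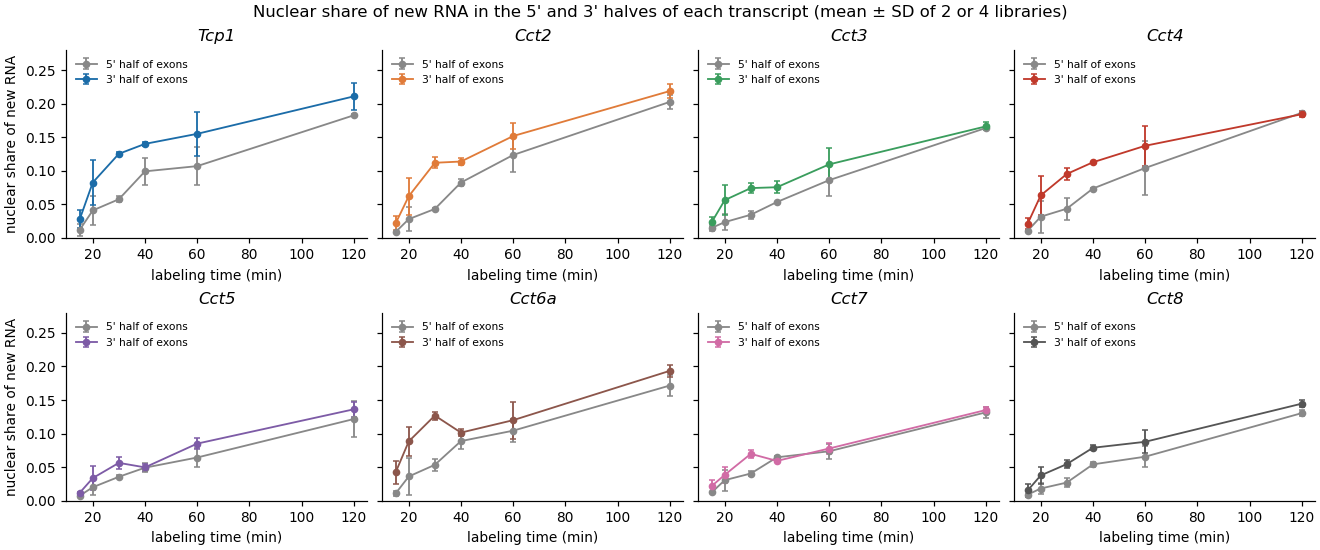
Nuclear share of new RNA against labeling time (min) in exons of the 5′ part (grey) and of the 3′ part (colored) of each member's principal transcript; points are means and bars SDs of 2 or 4 libraries. The 3′ part lies above the 5′ part at 30 min for every member (for Tcp1 at 0.125 against 0.0573), while at 120 min Cct4 is at 0.184 and 0.186.

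How far subunits of 1 complex have the same kinetics was tested pair by pair. Within nuclear libraries, 21 of the 28 pairs differed in log2(share + 0.01) (exact permutation test of sign changes over 16 libraries, two-sided, adjusted over 28 pairs). Tcp1, Cct2, Cct3, Cct4 and Cct6a had higher shares than Cct5, Cct7 and Cct8 in each of the 15 pairs between these members, by 0.42 to 0.95 on the log2 scale. The widest difference was between Cct5 and Cct6a (-0.95 ± 0.44; SD, n = 16, with Cct5 higher in 0 of 16 libraries), and Tcp1 exceeded Cct5 by 0.91 ± 0.29, in 16 of 16. Pairs that were not told apart included Cct3 and Cct4 (-0.02 ± 0.26), Cct2 and Cct4 (0.06 ± 0.16) and Cct7 and Cct8 (0.09 ± 0.22). In the cytosol, 23 of 28 pairs differed, and Cct6a (higher than each of the other 7) and Cct8 (lower than each of the other 7) took part in 13 of them. Without the 2 exons the counts were 20 and 20. Each of the 15 nuclear pairs still differed, and so did each cytosolic pair with Cct8, but Cct6a was no longer told apart from Tcp1 (-0.06, Tcp1 minus Cct6a, adjusted p = 0.0550) and Cct3 (-0.02, adjusted p = 0.509) in the cytosol by the exact permutation test. When the means over cultures of each of the 6 replicates were compared, 19 pairs differed in the nucleus and 0 in the cytosol, where the exact test cannot go below 0.0312 and 16 pairs had an unadjusted p of under 0.05.

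The differences between members were small beside those between genes. The SD over the 8 members of the mean log2(share + 0.01) was 0.37 in the nucleus and 0.28 in the cytosol (0.20 without the 2 exons), where the SD over 11575 genes was 0.78 and 0.90. In the same measure, the 14 core subunits of the 20S proteasome, another complex of fixed composition, had SDs of 0.25 and 0.17, and the 6 subunits of prefoldin 0.84 and 0.57. The 13 genes for TRiC substrates, which form no single complex, had SDs of 0.33 and 0.31. These are descriptions with no test. The members had low shares, with 80.3% of genes above their mean in the nucleus and 79.3% in the cytosol. The added 0.01 presses log2 differences between low shares together. Its part in the smaller SD of the members was not tested.

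A 3-step model like that of the study was fitted to the mean shares of each member, with transitions from pre-mRNA to nuclear mRNA, from there to cytosolic mRNA, and decay. The fit was simpler than the published one, since it used shares of whole genes in place of exons and no steady-state levels. Fitted half-lives of pre-mRNA were 9.63 min (Cct7) to 20.7 min (Tcp1), with a median of 14.1 min, and all 8 were under the median of 24.5 min over 9940 genes fitted. Nuclear half-lives were long. They were 203 min for Tcp1, 230 min for Cct2, 254 min for Cct6a, 261 min for Cct4, 317 min for Cct3, 357 min for Cct8, 426 min for Cct5 and 443 min for Cct7, against a median of 73.2 min and an upper quartile of 130.5 min over all genes. Leaving out each replicate moved them little, for example to 193 to 210 min for Tcp1 and 389 to 459 min for Cct5. Cct5 and Cct7 could not be ordered, and neither could Cct6a (240 to 270 min) and Cct4 (254 to 269 min). Since labeling ended at 120 min, half-lives beyond this time rest on the early part of the curve. Cytosolic half-lives were short, with 1.77 min for Cct7, 7.40 min for Cct6a, 9.40 min for Cct5, 13.4 min for Cct3, 18.6 min for Cct8, 19.5 min for Cct4, 24.0 min for Tcp1 and 32.8 min for Cct2, and their median of 16.02 min lay near that of all genes (12.2 min). With a replicate left out, those of Cct6a and Cct7 reached 0.5 min, the lower bound of the fit. Up to 40 min, mean cytosolic shares of the members were at most 0.0348, under the minimum standard error of 0.06 used in the fit. The early points therefore hold the cytosolic half-lives weakly, and no order of the members is read from them. The model takes all RNA in nuclear libraries as nuclear and cannot tell cytoplasmic RNA left on nuclei from it. Mitochondrial and ER mRNAs were higher in nuclear than in cytosolic libraries and highest in the membrane fraction, as given above. The part of such RNA in these half-lives was not tested. With shares of the membrane fraction in place of the cytosol, the medians were 284 and 33.5 min.

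**Figure D5:**
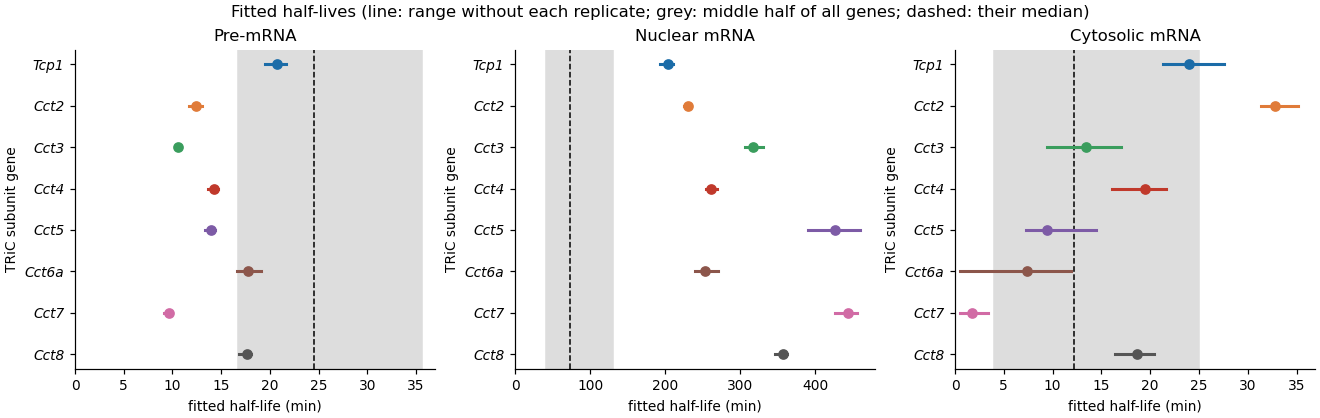
Fitted half-lives (min) of pre-mRNA, nuclear mRNA and cytosolic mRNA for each member; points are the fit to all libraries, lines the range over fits without each replicate, grey bands the range between the quartiles of 9940 genes and dashed lines their medians. Nuclear half-lives of the 8 members, 203 to 443 min, lie right of the grey band.

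Genes around TRiC were described by the same measures. Their counts stand beside the shares called over all genes, 21.2% for a lower nuclear level and 76.3% for a lower cytosolic share. All 6 prefoldin subunits had lower whole-cell levels than any TRiC subunit, from 33.1 ± 11.3 (Pfdn2) to 125 ± 28 (Pfdn1) CPM per kb (SD, n = 16). Of the 6, 5 were called lower in the nucleus than in the cytosol (median -1.14, lowest Pfdn5 at -1.39, highest Pfdn4 at -0.31). The TRiC cofactors Pdcl, Pdcl3 and Txndc9, of the phosducin and thioredoxin-like families, were lower still, with Pdcl3 at 12.7 ± 3.6 and Txndc9 highest at 22.2 ± 5.1, and 2 of the 3 were called lower in the nucleus (median -0.92). Hspd1 and Hspe1, which form the chaperonin of mitochondria, were at 415 ± 115 and 375 ± 61.6, above the TRiC subunits, and 1 of the 2 (Hspe1, -0.75) was called. Of 13 genes for TRiC substrates, mostly actins and tubulins, 10 were called lower in the nucleus, with a median of -0.66 and Actb lowest at -1.19. Of the 14 proteasome genes, 13 were called (median -0.98). The testis paralog Cct6b was at 0.376 to 1.98 CPM in whole cells. For the share of new RNA in the cytosol against the nucleus, 5 of 6 prefoldin genes, 3 of 3 cofactors, 12 of 13 substrates and 10 of 14 proteasome genes were called lower, and nothing particular to a list is read from these counts. Median nuclear half-lives were 228 min for prefoldin, 91.1 min for the cofactors, 290 min for the substrates and 420 min for the proteasome core, next to 289 min for TRiC.

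Over the 64 libraries, each member's profile of log2(share + 0.01), centred on the median of all genes in each library, was close to the mean profile of the other 7, with Pearson's r from 0.838 (Cct2) to 0.961 (Cct6a), where the median over all genes was about 0.08. Genes outside the complex also reached such values. The percentage of genes with a higher r than the member was 3.91% for Cct2, 2.697% for Tcp1, 1.79% for Cct5 and 1.02% for Cct7. It was 0.493% for Cct8, 0.0173% for Cct3 and for Cct4, and 0% for Cct6a. The libraries share fractions and labeling times, so these values are descriptions over 64 points that are not independent. The 5 other genes of 11567 with profiles most like the mean of the members were Atp5b (r = 0.967) and Atp5a1 (0.962), which encode subunits of mitochondrial ATP synthase, Rpl27 (0.956), a ribosomal protein gene, Npm1 (0.955), which encodes nucleophosmin, and Rps27a (0.954), which encodes a ubiquitin and ribosomal fusion protein.

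Whole-cell levels of the members did not pass the test between labeling times. From 20 to 60 min in replicates 3 and 4, 0 of 8 members were called (edgeR, all 18 whole-cell libraries in 1 fit), as were 0% of 16858 genes, with log2 differences of 0.07 to 0.20. From 20 to 120 min in the same replicates, 0 members and 0.113% of genes were called, with differences of 0.11 to 0.30, and from 60 to 120 min in replicates 5 and 6, 0 members and 0% of genes, with differences of -0.22 to 0.09. The last contrast rests on the whole-cell libraries of replicate 6, and without this replicate its differences were -0.43 (Cct5) to 0.20 (Cct6a). At an unadjusted p under 0.05 there were 0, 1 (Cct6a, 0.30, SE 0.14) and 0 members, and DESeq2 called 0 in each. SEs were 0.13 to 0.19 with 2 libraries per group, so small changes were not detectable at this number of libraries.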

How the data were processed

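SLAM-seq libraries of 4 fractions of mESCs were analysed. Reads were aligned with STAR 2.7.6 and counted with HTSeq 0.11.1 by the authors, per the methods and processing notes, with known SNPs left out of T2C calls. The deposited files hold, per gene and per exon, read counts and counts of T and T2C without normalization. Each library's conversion rate is a fraction in the deposited files, and the deposited share of new RNA is the ratio of T2C to T over that rate. The ratio was recomputed and differed from the deposited one by at most 2.42e-13. Genes were named with GENCODE M21 (51633 of 51826 matched). Reads that name no gene were left out. No 2 libraries held identical values.

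Read counts were tested with edgeR 4.0.16 (quasi-likelihood, TMM, filterByExpr; R 4.3.3), with DESeq2 1.42.0 as an alternative, and shares with limma 3.58.1 on log2(share + 0.01), keeping genes whose T count reached 400 in all libraries of a fit. A gene was called at a Benjamini-Hochberg adjusted p under 0.05 over all genes and a log2 difference over 0.5 in size. Pairs of members were compared within libraries by sign changes, with all 65536 patterns enumerated in place of random draws. Half-lives came from a least-squares fit to gene-level shares, without steady-state levels and thus simpler than the published one, with a delay of 5 min and a minimum standard error of 0.06. Python 3.11.15, scipy 1.17.1 and pandas 2.3.3 were used.

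Fractions of 1 culture came from the same dish, so that cultures pair the fractions. Deviations from the group means correlated with medians of 0.139 to 0.329 over 16 cultures (lowest -0.13). The whole-cell libraries compared over time share only a replicate number. On simulated data with 200 genes changed 2-fold, 94% were recovered with 0 false calls in the nuclear versus cytosolic level (16388 genes), and 99.5% with 0 false calls in the cytosolic versus nuclear share (11575 genes). These figures cover 2-fold changes and not differences near the limit on size, where several members lay. All members were named by symbol, with lists of prefoldin, TRiC cofactors, substrates, other chaperonins and the proteasome core, and the 5 genes most alike. The members and lists were chosen with earlier results of these data known. Cytosolic, membrane and nuclear libraries of 120 min in replicates 3 and 4 were not used here.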

Additional observations from a re-analysis of the deposited data

Results flagged for a closer look

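Of 128 groups of 4 libraries tested for a library far from the others (Dixon's criterion at 95%), 4 were flagged, or 3.125%, and chance flags about 1 in 20. The whole-cell level of Cct4 at 60 min was lowest in replicate 5 (243.1 CPM per kb, the nearest 280.7). The nuclear level of Cct5 at 60 min was highest in replicate 4 (456.2, the nearest 397.1), and that of Cct8 at 20 min in replicate 3 (221.8, the nearest 191.5). The share of new RNA of Cct8 in the membrane fraction at 20 min was highest in replicate 4 (0.0162, the nearest 0.0104).

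The nuclear minus cytosolic log2 level differed between replicates 3 and 4 and replicates 5 and 6 by the edgeR interaction test for 7 members. The difference was -0.97 for Cct3, -0.95 for Cct4, -0.93 for Cct5, -0.88 for Cct6a, -0.67 for Tcp1, -0.66 for Cct8 and -0.66 for Cct7.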

How the results depend on the processing

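Among values of single members, 886 kept their direction and side of the threshold under an alternative, 42 passed it newly, 22 no longer passed it, and none of those called reversed. The number of members called lower in nuclear than in cytosolic level (4) was 7 with the culture as a replicate block, 8 in replicates 3 and 4 alone, 7 without the whole-cell libraries of replicate 6, and 6 to 7 with each replicate left out. For the membrane fraction against the cytosol (0), it was 1 with no filter on low counts, 1 in replicates 3 and 4 alone, 2 in replicates 5 and 6 alone and 0 to 2 with a replicate left out. For the cytosolic against the nuclear share (8), it was 0 in replicates 5 and 6 alone, in a fit with the whole-cell libraries of replicate 6. It was also 0 for T2C / T without the conversion rate, where the added 0.01 makes the limit on size hard to reach. The difference between replicate sets (7 members) was 4 to 7 with a replicate left out, 4 without replicate 3. Of 28 pairs, 20 to 23 differed in the nucleus and 19 to 23 in the cytosol with a replicate left out, and 0 in the cytosol (23) over means of the 6 replicates, where the smallest p is 0.03125. The median nuclear half-life (288.9 min) was 313.1 min with exon-level shares, in a fit whose elongation rate lay at its upper bound of 20 kb per min for 7 of the 8 members, and 280.5 to 299.9 min with a replicate left out. The cytosolic one (16.02 min) was 33.5 min with the membrane fraction and 12.8 to 18.4 min with a replicate left out. The ratio of highest to lowest level (1.505) was 1.30 in CPM, 1.78 in nuclei, 1.65 in the cytosol, 2.60 with all annotated exons and 1.47 to 1.54 with a replicate left out. The replicate block changed no other call: 0 members for the membrane level and share, 8 for the cytosolic share and introns, 7 for the difference between sets, and 0 for each whole-cell time comparison, where samples share only a number. Leaving out the 2 exons or those 2 whole-cell libraries, the length of all exons and the comparison of the 5′ and 3′ parts of transcripts were chosen after seeing the data. The share of all genes called under each alternative is not given in this section, so its counts of members are not read as particular to them. The causes of these changes were not tested.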
